A study of Mus musculus with 8 samples.

Results

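The myomiRs are the microRNAs (miRNAs) made mainly in skeletal and heart muscle: miR-1, miR-133, miR-206, miR-208 and miR-499. Their 9 precursors mmu-mir-1a-1, mmu-mir-1a-2, mmu-mir-133a-1, mmu-mir-133a-2, mmu-mir-133b, mmu-mir-206, mmu-mir-208a, mmu-mir-208b and mmu-mir-499 were taken by name from a table of 1181 mouse miRNA precursors, and all 9 were found; the species prefix is left out from here on. Small RNA had been sequenced from myoblasts, cells that divide, exit the cell cycle and fuse into fibres. There were 4 libraries from old and 4 from young mice, all C57BL/6J. Each library carries the number in its title, called the mouse number here, and values are listed in that order. The labels give the mice as old or young without an age, and say nothing of any treatment or of whether the myoblasts were dividing or differentiating when RNA was taken.

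MiR-1 and miR-133 are made from shared primary transcripts, as are miR-206 and miR-133b, and these genes are switched on by the myogenic factors MyoD and myogenin and by MEF2 and SRF. MiR-1 and miR-206 favour differentiation, in part by repressing Pax7 and Hdac4, while miR-133 has been linked to the repression of SRF and to myoblast proliferation. MiR-208a, miR-208b and miR-499 are cut from introns of myosin heavy chain genes and belong to the heart and slow-fibre programme. Rising miR-1, miR-133 and miR-206 are a usual readout of myoblast differentiation in culture.

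The mature strands that mark the groups are shown from RefSeq (GRCm38.p6) to set out which members share a seed, the stretch of bases 2 to 8 that pairs with targets. Capitals mark the seed.
miR-206-3p: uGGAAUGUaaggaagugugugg
miR-133b-3p: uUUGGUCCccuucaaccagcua
miR-208a-3p: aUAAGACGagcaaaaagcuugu
miR-208b-3p: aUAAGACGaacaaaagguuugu
miR-499-5p: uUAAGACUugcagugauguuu
MiR-208a-3p and miR-208b-3p had the same seed and differed at 3 of 22 bases (G10A, A16G and C18U, counted from 1 at the 5′ end, the miR-208a base first). MiR-499-5p differed from both at 1 seed base. MiR-206-3p and miR-133b-3p, whose precursors are neighbours, differed at 6 of the 7 seed bases. MiR-1 carries the seed of miR-206, and miR-133a that of miR-133b.

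The members lie in pairs or in myosin genes (coordinates are GRCm38, the same assembly as the mm10 build that the submitters' processing notes name). Mir-206 (chr1:20679010-20679082, plus strand) and mir-133b (chr1:20682769-20682887, plus strand) are 3.7 kb apart, and both overlap exons of the long non-coding RNA gene Gm28653. Mir-1a-1 (chr2:180389048-180389124) and mir-133a-2 (chr2:180398379-180398482) are 9.3 kb apart on the plus strand, with no other GENCODE gene over them. Mir-1a-2 and mir-133a-1 form the matching pair on chromosome 18, in an intron of the non-coding gene Mir133a-1hg and antisense to an intron of Mib1. Mir-208a (chr14:54949060-54949142, minus strand) is in an intron of Myh6, mir-208b (chr14:54975700-54975776, minus strand) in an intron of Myh7 and mir-499 (chr2:155622880-155622958, plus strand) in an intron of Myh7b.

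The authors deposited log2 abundances floored at 0, with the arms of a precursor not separated. Their low values step as read numbers divided by precursor length and library size would, so levels are treated as per length, and the reads behind a low value could be counted back. The library sizes recovered in this way were 25.1 to 28.0 M reads for old and 30 to 39.4 M for young mice, and 588 to 635 precursors per library were above 0. The test between the groups covered precursors that reached a linear value of 10 in 4 or more libraries, which left 359 in all and 6 of the 9 members. Mir-1a-1, mir-1a-2 and mir-208a did not pass this filter and are given by their values. Libraries are bulk samples, so fewer cells of a type and less RNA per cell cannot be told apart.

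Mir-206 was the most abundant myomiR in each library, and mir-133a the next by its mean. The log2 abundance of mir-206 was 16.14, 15.83, 15.88 and 15.76 for old mice 1 to 4 and 15.92, 15.67, 16.52 and 14.78 for young mice 1 to 4. By its mean over the 8 libraries, 15.81, it ranked 18th among the 1181 precursors. The old libraries lay within 0.38 of each other, between the highest young library (young 3) and the lowest (young 4), so the groups overlapped. The SD of mir-206 over the 8 libraries was 0.49, smaller than the median of 0.64 over the compared precursors, and 25.9% of them varied less. Mir-206 held 58.9% to 82.1% of the summed linear values of the 9 members.

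Mir-133a-1 measured 12.99, 13.11, 14.30 and 12.94 in old mice and 13.53, 13.92, 14.92 and 11.91 in young mice. Old 3 stood above the other 3 old libraries, and the young libraries included both the highest and the lowest value. Mir-133a-2 measured 12.38, 12.51, 13.69 and 12.31 in old mice and 12.91, 13.28, 14.29 and 11.28 in young mice. The copies differed by 0.60 to 0.64 log2 units in all 8 libraries, and their lengths of 68 and 104 bases alone give 0.61. They thus carry in effect the same signal, so the output of the chromosome 2 and chromosome 18 loci cannot be read separately. These copies count as 1 measurement. Whether a read was counted under both copies or under 1 of them is not given in the sources used here.

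Mir-133b, whose mature strand is nearly identical to that of miR-133a, followed another course. It measured 11.10, 10.17, 13.07 and 13.28 for old mice 1 to 4 and 12.92, 10.85, 13.02 and 11.05 for young mice 1 to 4. The libraries fell into 4 at 12.92 to 13.28 (old 3, old 4, young 1 and young 3) and 4 at 10.17 to 11.10, each holding 2 old and 2 young libraries. Over the 8 libraries it spanned 8.63-fold on the linear scale, against 3.34-fold for mir-206.

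**Figure D1:**
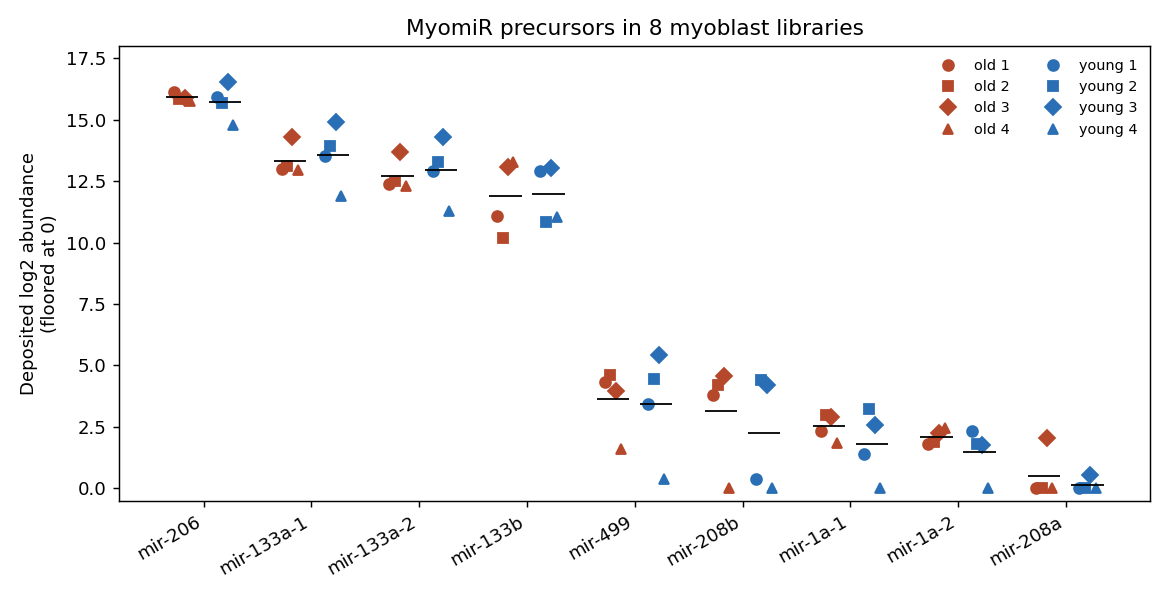
Deposited log2 abundance (vertical axis, floored at 0) of the 9 myomiR precursors, with 1 point per library (old in red, young in blue, marker shape for the mouse number) and a black bar for each group's mean. Mir-206 and the mir-133 precursors sit between 10.17 and 16.52, the other 5 between 0 and 5.42, and old and young points overlap for each precursor.

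Mir-1a was near the floor in these myoblasts, in contrast to mir-133a, whose 2 loci cannot be read separately, and to miR-206, which shares its seed. Mir-1a-1 measured 2.35, 3, 2.89 and 1.86 in old mice and 1.38, 3.22, 2.57 and 0 in young mice. These values stand for 11, 16, 15 and 7 reads for old mice 1 to 4 and for 6, 23 and 15 reads in young 1 to young 3. Counting error alone is wide at such numbers: the exact Poisson 95% interval was 2.2 to 13.1 for the 6 reads of young 1 and 14.6 to 34.5 for the 23 of young 2. In young 4 it was listed at 0, which at that depth hides at most 3 reads.

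Mir-1a-2 measured 1.80, 1.90, 2.25 and 2.47 in old mice and 2.35, 1.79, 1.77 and 0 in young mice, or 7 to 11 reads where it was above 0. Young 4 was again the library at 0, and the other 7 lay within 0.70 of each other, so old and young overlapped. The copies of mir-1a did not run parallel, unlike those of mir-133a: mir-1a-1 minus mir-1a-2 ranged from -0.97 to 1.43 over the 7 libraries, all at few reads. Per length, mir-206 was 5595-fold to 23822-fold above mir-1a-1 in these 7 libraries. Mir-1a-1 minus mir-133a-2, its neighbour on chromosome 2, was -11.72 to -9.51 log2 units, and mir-1a-2 minus mir-133a-1 was -13.15 to -10.47. As the mir-133a loci cannot be read separately, these are not differences within 1 locus. How the authors' alignment treated reads that match several precursors is not given in the sources used here, and its part in the low mir-1a values was not tested.

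The myosin-intron miRNAs were scarce as well, and mir-499 and mir-208b had the widest spread of the 9 members from library to library. Mir-499, from the slow myosin gene Myh7b, measured 4.32, 4.6, 3.95 and 1.60 for old mice 1 to 4 and 3.45, 4.44, 5.42 and 0.36 for young mice 1 to 4. Old 4 at 6 reads and young 4 at 4 reads stood under the other 6 libraries, which held 26 to 111 reads. Of the compared precursors, 85.5% had a smaller SD over the 8 libraries than mir-499.

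Mir-208b, from the slow and fetal cardiac myosin gene Myh7, measured 3.80, 4.21, 4.57 and 0 in old mice and 0.38, 4.39, 4.22 and 0 in young mice. The values split into 5 libraries at 30 to 52 reads and 3 (old 4, young 1 and young 4) at 3 reads or under the floor. The low libraries came from both groups. Mir-208a, from the Myh6 gene of adult heart muscle, was listed at 0 in 6 of 8 libraries, and above it in old 3 at 2.05 (9 reads) and in young 3 at 0.56 (4 reads).

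In order of mean level per length the precursors ran mir-206, mir-133a-1, mir-133a-2, mir-133b, mir-499, mir-208b, mir-1a-1, mir-1a-2 and mir-208a. Mir-206 exceeded mir-133b by 2.48 or more and mir-133a-2 by 2.19 or more in each library. Precursor lengths alone give 0.70 and 0.51 of these gaps. Per length, mir-133b changed places with mir-133a between libraries, from 3.07 under mir-133a-1 in young 2 to 0.34 above it in old 4. The lengths of 119 and 68 bases alone put mir-133b 0.81 under mir-133a-1. Weighted by length, mir-133b exceeded mir-133a-1 in young 1 as well as in old 4, with 53.4% and 68.9% of their sum. Mir-499, mir-208b and the mir-1a copies overlapped over the libraries and have no firm order.

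Old and young myoblasts did not differ in any compared myomiR by more than the spread between libraries. Across the 359 precursors, 0 passed an adjusted p of 0.05 (0%; limma with Benjamini-Hochberg adjustment, all members at an adjusted p of 0.995), and 4 had an unadjusted p under 0.05, none of them a myomiR. Mir-206 measured 15.90 ± 0.17 in old mice and 15.72 ± 0.72 in young mice (mean ± SD, 4 libraries each), a log2 difference of 0.18 with an SE of 0.37. Its 95% interval reached from 0.64-fold to 2.01-fold in old over young, so that changes of this size are still allowed. The two-sided exact permutation p was 0.714, where 4 against 4 libraries can give no less than 0.0286.

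Mir-133a-1 measured 13.34 ± 0.65 and 13.57 ± 1.25, a difference of -0.235 with a 95% interval of -1.60 to 1.13 (exact permutation p = 0.743). Its copy mir-133a-2, in effect the same signal, gave -0.22. Mir-133b measured 11.91 ± 1.52 and 11.96 ± 1.17, a difference of -0.055 (95% interval -1.85 to 1.74, exact permutation p = 1). On the linear scale the interval of mir-133a-1 ran from 0.331-fold to 2.18-fold and that of mir-133b from 0.278-fold to 3.34-fold, so changes within these bounds could not be told from none.

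Mir-499 measured 3.62 ± 1.37 in old mice and 3.42 ± 2.19 in young mice (difference 0.20, 95% interval -2.26 to 2.66, exact permutation p = 0.857). Mir-208b measured 3.145 ± 2.12 and 2.25 ± 2.38 (difference 0.90, 95% interval -2.08 to 3.88, exact permutation p = 0.829; SD, n = 4 each). In this fit the floored zeros of mir-208b in old 4 and young 4 were used as deposited, so its difference is one of floored values. Of the 6 compared members 3 had a higher and 3 a lower mean in old, with a median difference of 0.06, against 165 higher, 194 lower and a median of -0.05 over all 359. The ranges of old and young overlapped for each of the 6 members, and were separate for 3 of the 359 precursors (0.836%).

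Single libraries turned the direction of each compared member except mir-208b, which was higher in old mice in all 8 such fits (0.15 to 1.95). Without young 4 the difference of mir-206 was -0.13 and that of mir-499 -0.82, and without young 3 those of mir-133a-1 and mir-133a-2 were 0.215 and 0.23. Mir-133b turned to 0.21 when old 1 was left out, to 0.52 for old 2, to 0.265 for young 1 and to 0.30 for young 3. The difference of mir-499 was -0.034 without old 1 and -0.13 without old 2. The adjusted p-values stayed above 0.05 in each case.

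**Figure D2:**
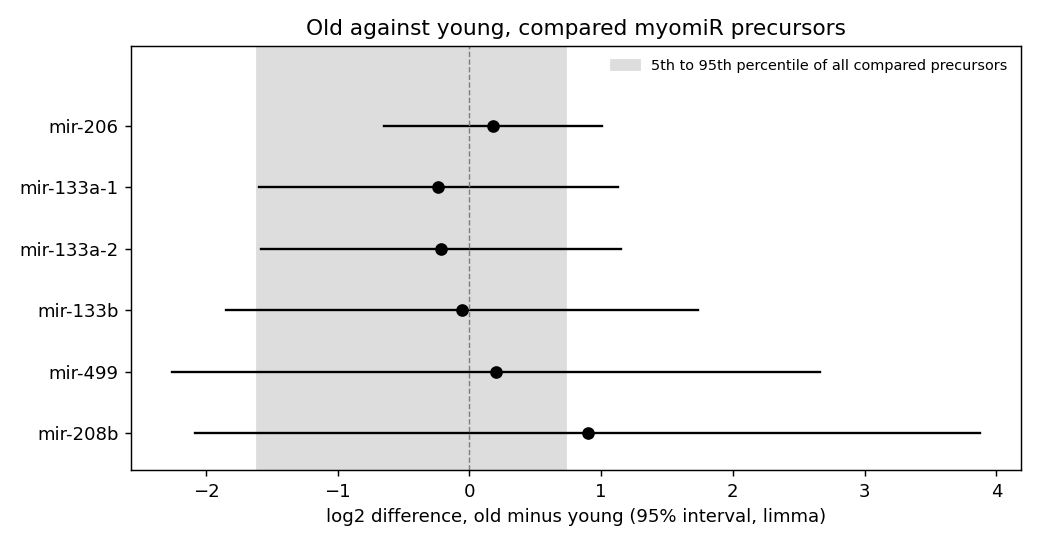
Log2 difference of old minus young libraries (horizontal axis; points, with 95% intervals from limma as lines) for the 6 compared myomiR precursors, n = 4 libraries each. The grey band is the range from the 5th to the 95th percentile of the differences of the 359 compared precursors, and each interval includes 0.

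Single libraries lay farther apart than the group means, and young 4 was the low end for most myomiRs. Of the 6 compared members, mir-206, mir-133a-1, mir-133a-2 and mir-499 were lowest in young 4, and mir-208b was at 0 there and in old 4. The mir-133a copies being 1 measurement, these are 3 separate miRNAs. Over all 359 precursors young 4 alone was lowest for 17 (4.74%), and it was the highest library for 39.8%. Relative to its own mean over the 8 libraries, mir-206 in young 4 was at -1.03, mir-133a-1 at -1.54 and mir-499 at -3.16, while the median of all compared precursors there was 0.58. After median-ratio scaling, or with library totals that leave out mir-486 and mir-3107, 5 of the 6 members were lowest in young 4 (11.7% and 11.4% of all 359 precursors). The member added by this rescaling was mir-208b. It was listed at 0 in both old 4 and young 4, so the scaling factors alone set the order of these libraries for it. Young 4 was singled out after its values were seen. It was also the deepest, at 39.4 M reads, and the one with the smallest share of mir-486 and mir-3107, at 32.4% of its summed values against 48.4% to 72.9% elsewhere; the part of these in its low myomiR values was not tested.

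Young 3 was the opposite case. Mir-206, mir-133a-1, mir-133a-2 and mir-499 were highest there, 4 of 6 members, against 49 of the 359 precursors (13.6%). The mir-133a copies are not separate measurements, and young 3 was also singled out after its values were seen. The other 2 members were highest in old libraries, mir-133b in old 4 and mir-208b in old 3. Young 3 and young 4 thus made up both ends of the range within the same group. The SD of mir-206 was 0.72 in young and 0.17 in old libraries, and that of mir-133a-1 1.25 and 0.65.

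Old 4 showed that the members did not move as a block. Its mir-206 was 0.052 under the mean of the 8 libraries and its mir-133a-1 0.51 under it, with mir-499 at -1.92 and mir-208b at the floor, but its mir-133b was the highest of the 8 at 1.35 above its mean. Young 1 likewise combined a high mir-133b, 0.99 above its mean, with a low mir-208b at -2.32. In old 2 it was the reverse, with mir-133b at -1.76, mir-208b at 1.51 and mir-499 at 1.08.

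**Figure D3:**
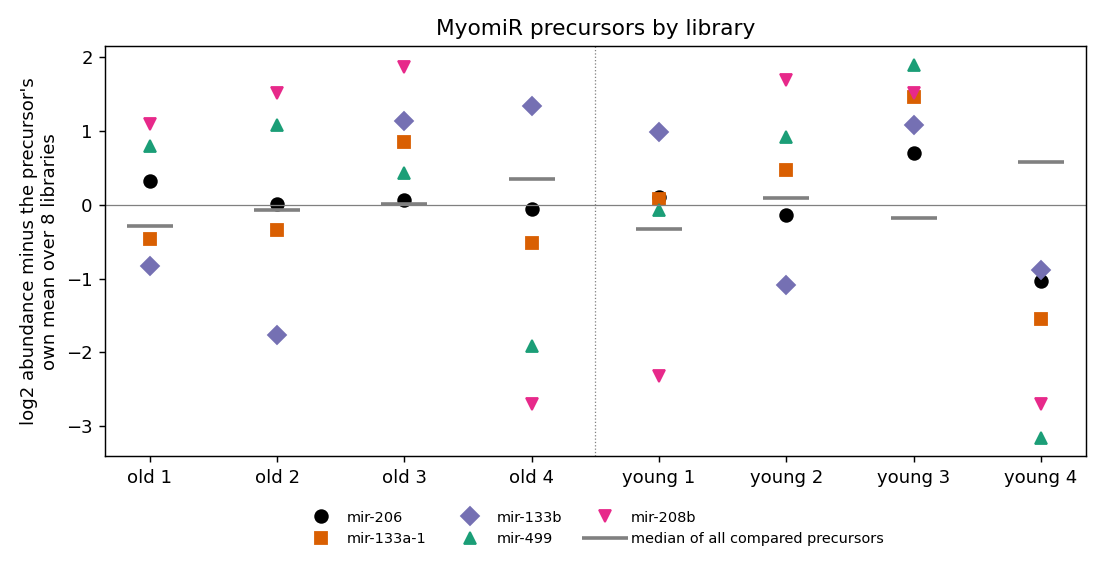
Each compared myomiR precursor in each library as log2 abundance minus its own mean over the 8 libraries (vertical axis; mir-133a-2 is left out because it repeats mir-133a-1), with the median of the 359 compared precursors as grey bars. In young 4 the 5 precursors lie from -0.88 to -3.16 while the grey bar is at 0.58, and in young 3 they lie from 0.71 to 1.90.

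Summed, the 9 members made up 0.765 ± 0.105% of all linear values in old mice and 0.734 ± 0.349% in young mice (SD, 4 libraries each; no test was made of a score over the members). Old 1 to old 4 were at 0.723%, 0.809%, 0.885% and 0.642%, and young 1 to young 4 at 0.593%, 0.762%, 1.20% and 0.380%. The old values lay between those of young 1 and young 3, and young 4 was the lowest. Both copies of mir-133a enter this sum, and whether the same reads are counted under both is not known from the sources used here. Mir-486 and mir-3107 are names of 1 muscle-enriched locus. Without them in the denominator the members held 2.0 ± 0.448% and 1.95 ± 1.28%.

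**Figure D4:**
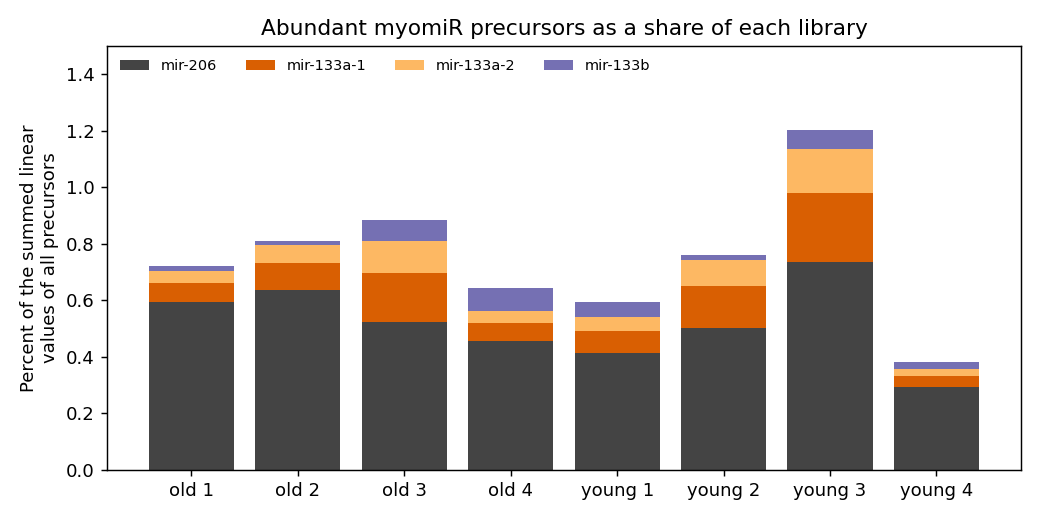
Stacked bars, starting at 0, of the linear values of mir-206, mir-133a-1, mir-133a-2 and mir-133b as a percent of the summed linear values of all precursors in each library. The stacks run from about 0.380% in young 4 to 1.20% in young 3, with mir-206 as the largest part of each.

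Comparisons within a library do not move with its scaling, and here mir-133b spread more widely against mir-206 than mir-133a did. Mir-206 minus mir-133b was 5.04, 5.66, 2.81 and 2.48 for old mice 1 to 4 and 3, 4.82, 3.5 and 3.73 for young mice 1 to 4. The old libraries split into 2 high and 2 low values, with the 4 young libraries between them. The SD of this difference over the 8 libraries was 1.16, although the precursors lie 3.7 kb apart on 1 strand. Mir-206 minus mir-133a-2, from other loci, had an SD of 0.63, from 2.19 in old 3 to 3.76 in old 1; this pair was added after its values were seen.

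Mir-133a-1 minus mir-133b was 1.89, 2.94, 1.23 and -0.34 in old mice and 0.61, 3.07, 1.90 and 0.86 in young mice. The lengths of these precursors alone give 0.81. Weighted by precursor length, mir-133b held 17.2% to 68.9% of the sum of mir-133a-1 and mir-133b, lowest in young 2 and highest in old 4. Mir-133a-2 was left out of this sum. If the mir-133a reads were divided between the copies, the share of mir-133b in all mir-133 reads would be lower. The mature strands of miR-133a and miR-133b are close enough that the authors' alignment could divide their reads in more than 1 way, and its part in this split was not tested. Neither difference separated old from young. Mir-206 minus mir-133b was 4.0 ± 1.59 in old mice and 3.76 ± 0.77 in young mice (two-sided exact permutation p = 0.829, adjusted p = 0.857 over 3 pairs). Mir-133a-1 minus mir-133b was 1.43 ± 1.37 and 1.61 ± 1.12 (exact permutation p = 0.857, adjusted p = 0.857; SD, n = 4 each). For the mir-133a copies the exact permutation p was 0.114 (adjusted p = 0.343) for a difference of -0.018. The copies being in effect 1 measurement, this test does not bear on old against young, though it counts among the 3 pairs. In the pairs with mir-133b, leaving out single libraries turned the sign: mir-206 minus mir-133b was -0.11 without old 1, -0.32 without old 2 and -0.019 without young 1, and mir-133a-1 minus mir-133b was 0.41 without old 4 and 0.31 without young 2.

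**Figure D5:**
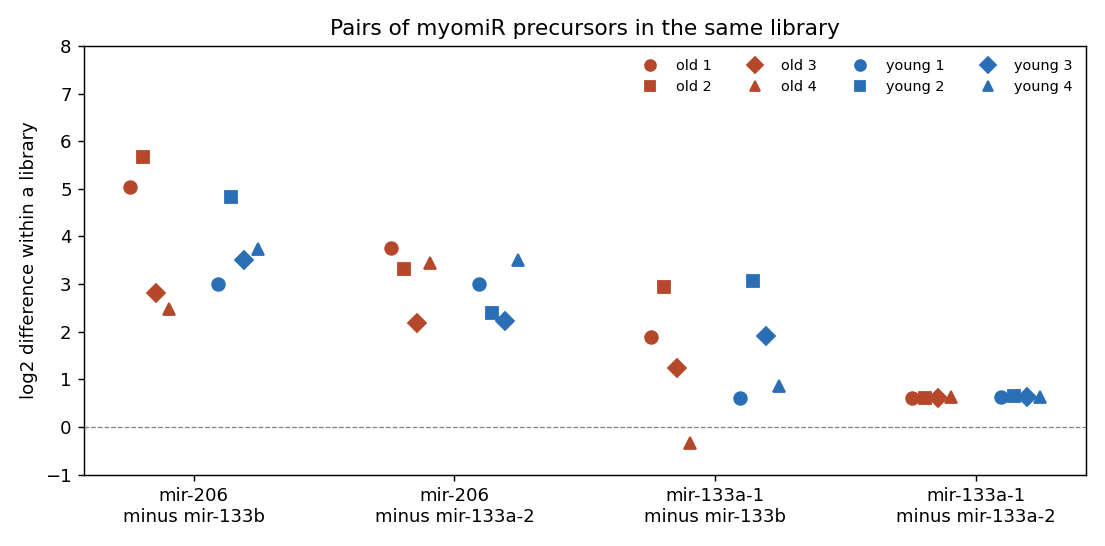
Log2 difference of 2 precursors in the same library (vertical axis), with 1 point per library (old in red, young in blue). Mir-206 minus mir-133b spreads from 2.48 to 5.66 and mir-133a-1 minus mir-133b from -0.34 to 3.07, while the mir-133a copies stay at 0.60 to 0.64.

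Mir-499 and mir-208b come from different myosin genes on different chromosomes. Mir-499 minus mir-208b lay between -0.62 and 1.20 in the 5 libraries where both had at least 30 reads, and was 3.07 in young 1, where mir-208b had 3 reads. Old 4 and young 4, the libraries with mir-208b at 0, were also those with the lowest mir-499. Mir-208b exceeded mir-208a by 2.52 in old 3 and by 3.66 in young 3, the libraries where both were above 0.

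Among compared precursors other than the members, those with the profile nearest to mir-206 over the 8 libraries were mir-486, mir-3107 and mir-501. After each profile was centred on its own mean, they differed from it by a root mean square of 0.29, 0.29 and 0.38 log2 units, against a median of 0.92 over all other compared precursors. Mir-133b was farther from mir-206, at 1.09, than this median. Mir-486 and mir-3107, being names of 1 locus, are not separate neighbours of mir-206. Outside the members, nearest to mir-133a-2 were mir-128-2, mir-503 and mir-322, at 0.45, 0.49 and 0.51 (median 1.23). Nearest to mir-499 were mir-6923, mir-542 and mir-351, at 0.48, 0.81 and 0.90 (median 1.93).

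Other miRNAs linked to muscle differentiation did not pass between old and young either, and part of them were lowest in young 4. Of 17 listed precursors that rise in or favour differentiation, all 17 were compared and 0 passed the test. In old, 12 had a higher and 5 a lower mean (median difference 0.04), against 165 higher and 194 lower of all 359 (median -0.05). Some are copies of 1 miRNA with near-equal differences, such as mir-24-1 and mir-24-2 (0.2475 and 0.2425), so the 17 are not all separate. Young 4 was the lowest library for 4 of them, against 4.74% of all 359 precursors: mir-486, mir-322, mir-503 and mir-351, the last 3 from a cluster on the X chromosome that is induced in differentiating myoblasts. It was the highest for 4 others, against 39.8% of all 359: the mir-29 precursors mir-29a, mir-29b-1, mir-29b-2 and mir-29c, miRNAs that repress collagen genes and also favour differentiation.

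Mir-486, a muscle-enriched miRNA, measured 21.72, 21.06, 21.50 and 21.37 in old mice and 22.11, 20.99, 21.74 and 20.29 in young mice, with young 4 lowest. Mir-181a-2, which represses Hox-A11 during myoblast differentiation, measured 18.14, 17.73, 18.08 and 18.32 in old mice and 17.85, 18.96, 17.97 and 18.47 in young mice. The groups overlapped for both, and mir-181a-2 was highest in young 2.

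Mir-221 and mir-222, which fall when myoblasts differentiate, were higher in young 4 and old 4 than elsewhere, as many precursors were. Mir-221 measured 14.26, 13.51, 14.31 and 15.12 in old mice and 14.11, 13.81, 13.80 and 15.51 in young mice. Mir-222 measured 13.75, 13.73, 13.95 and 14.58 in old mice and 13.13, 14.38, 13.58 and 15.26 in young mice. Young 4 and old 4 were the highest 2 of the 8 for both miRNAs, as they were for 119 of all 359 compared precursors (33.1%). The old and young means differed by -0.0075 and -0.085 (limma, adjusted p = 0.995 for each). Of 4 listed miRNAs of quiescent satellite cells, mir-489 was at 0 in all libraries. Mir-31 was compared and highest in young 4 (15.03, against 12.66 to 14.42 elsewhere), as were 39.8% of all precursors, and mir-497 measured 3.31 ± 0.64 in old mice and 3.15 ± 1.71 in young mice.

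Markers of other cell types were mostly low, apart from those of fibroblasts and smooth muscle. Of the 6 blood markers, 4 were at 0 in all libraries, among them mir-142 and mir-223, and the summed linear value of the list was 3.91 to 22.2 per library. The list of 2 endothelial markers, mir-126a and mir-126b, summed to 21.3 to 45.7 in old mice and 17.6 to 77.6 in young mice, highest in young 4, and the epithelial list reached 10.7 at most. The neural list summed to 4.59 to 22.4. Of the 6 fibroblast and smooth muscle precursors 5 were above 0, and the list summed to 38783 to 54188 in old mice and 21831 to 48148 in young mice, lowest in young 1. All 5 had a higher mean in old (median difference 0.29), against 165 of all 359 (median -0.05), and 0 passed the test. Mir-199a-1, mir-199a-2 and mir-199b had near-equal differences (0.29, 0.2575 and 0.2975), so the 5 are not all separate. From this list mir-143, a miRNA of smooth muscle cells and fibroblasts, was at 14.81 in young 4, against 14.06 to 15.35 in the other young libraries, and mir-199a-1 at 12.12, against 10.90 to 11.46. The part of these cells in the myomiR levels was not tested.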

How the data were processed

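Small RNA from myoblasts of 4 old and 4 young mice was isolated with a mirVana kit, per the labels' protocols. The authors deposited log2 values with 2 decimals, floored at 0, for 1181 precursors; BWA and mm10 come from the submitters' processing notes, and the counting rule is not given in the sources used here. Among values of up to 12 reads, 99.5% to 100% of linear values times precursor length were whole multiples of 1 read (tolerance 0.1), against 19.1% to 21.4% with lengths shuffled, as values per kilobase and library size would be; 1175 precursors had a length. This gave the library sizes and low read numbers, whose intervals cover counting error only.

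Differences were tested on the deposited log2 values with limma 3.58.1 (R 4.3.3, trend, Benjamini-Hochberg over 359 precursors), in a procedure tested on simulated data, and with exact permutation tests over 70 arrangements. Other steps used Python 3.11.15 (scipy 1.17.1, numpy 2.4.6, matplotlib 3.10.9, pandas 2.3.3). The design foresaw these tests for log2 values. Named were the 9 members, the 3 nearest profiles of mir-206, mir-133a-2 and mir-499 (mir-1a-1 was not compared) and the 2 most abundant compared precursors of each list; others named with counts were chosen after their values were seen. Members and lists were chosen with earlier results of these data known. Alternatives were pseudocounts, filters, scalings, limma settings, a block by mouse number and leaving out each library; scalings of the young 4 count were added after seeing the data. All 9 members were placed in the RefSeq table, and 6 had a mature sequence in it. The labels do not say whether the mice were handled together, and p-values measure the spread between these libraries.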

Additional observations from a re-analysis of the deposited data

Results flagged for a closer look

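In 28 groups of 4 values checked for a library far from the other 3, 5 were found. The nominal rate of 1 in 20 groups does not apply to them. The mir-208a and mir-208b groups hold values at 0, and the groups are not separate, as the mir-133a copies repeat each other. The copies of mir-133a stood out in old 3, at 14.30 for mir-133a-1 and 13.69 for mir-133a-2, which carry in effect the same signal. Mir-208a was above the floor in 1 library of each group, at 2.05 in old 3 and 0.56 in young 3, on 9 and 4 reads. Mir-208b was at 0 in old 4, with the other old libraries at 3.80 to 4.57.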

How the results depend on the processing

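No alternative gave any precursor past the threshold: the count was 0 in limma with all 18 settings, 8 of which left out a library, while the number at an unadjusted p under 0.05 ran from 0 to 39. The labels give no pairing by mouse number. Same-numbered libraries correlated in their deviations at 0.43, 0.66 and 0.58 for numbers 2 to 4, each old library there being closest to its own number, but at -0.064 for number 1, where old 1 was closest to young 4. Not every pair being correlated, the libraries were treated as unpaired. With the mouse number as a replicate block 0 passed, with 39 at an unadjusted p under 0.05 against 4. Rescaling moved the median of all differences from -0.05 to 0.089 (quantile normalization) and 0.14 (sum without mir-486 and mir-3107), and in the latter mir-133b was at 0.14, the same as that median. A pseudocount of 10 put mir-499 at -0.054, and array weights put mir-206 at -0.089 and mir-499 at -0.34. Array weights also moved mir-133a-1 to -0.77, mir-133a-2 to -0.75 and mir-133b to -0.71, with mir-208b at 0.65. With these weights 27 precursors had an unadjusted p under 0.05 in limma. The cause of these shifts was not tested. Without single libraries the difference ranged from -0.13 to 0.45 for mir-206, -0.79 to 0.215 for mir-133a-1, -0.77 to 0.23 for mir-133a-2, -0.51 to 0.52 for mir-133b, -0.82 to 0.87 for mir-499 and 0.15 to 1.95 for mir-208b. Within libraries it ranged from -0.32 to 0.74 for mir-206 minus mir-133b, from -0.68 to 0.41 for mir-133a-1 minus mir-133b and from -0.023 to -0.013 for the mir-133a copies. The members' share differed by 0.031 percentage points between old and young, or -0.088 to 0.187 without single libraries. With a mean linear value of at least 100, mir-499 and mir-208b were not compared. Depth limits mir-1a, mir-208a, mir-208b and mir-499.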
